A study of Homo sapiens with 6 samples.

Results

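The FOXO transcription factors FOXO1, FOXO3 and FOXO4 and 7 genes counted among their targets (DDIT4, TSC22D3, BCL6, BTG1, TXNIP, CCNG2 and SESN1) were followed in HaCaT cells, a spontaneously immortalised human keratinocyte line. Every probe set that the platform annotation assigned to 1 of these 10 genes alone was taken, which gave 27 of 54613 probe sets. The genes were selected on knowledge of the pathway and with the differences between these same 6 arrays in view. Their values in this comparison are therefore a description, and the p-values beside them support nothing further. In 3 biological replicates a negative pressure gradient (125 mmHg) acted on the cells for 12 h, and 3 control replicates spent the same 12 h at ambient pressure. All 6 were unmodified HaCaT cells grown in the same serum-containing medium, and the labels do not say how the replicate cultures were separated. Total RNA was measured on Affymetrix arrays, and values are on the log2 scale after RMA, a procedure that corrects background, normalises between arrays and summarises the probes of each probe set.

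FOXO proteins are forkhead transcription factors that are held in check by growth factor signalling. The kinases AKT and SGK phosphorylate them, after which 14-3-3 proteins bind them and they leave the nucleus. When this signalling is low they enter the nucleus and activate genes of cell cycle arrest, stress resistance and autophagy. Much of this control acts on the protein, which the arrays do not measure. The targets also answer to other inputs: DDIT4 to low oxygen and glucocorticoids, TSC22D3 to glucocorticoids, TXNIP to glucose.

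Within each group, Pearson's r between arrays over the probe sets, themselves no independent replicates, lay between 0.989 and 0.996. The replicate 3 arrays of both groups stood apart on the first principal component (40.4% of the variance), at 46.8 under negative pressure and 40.0 at ambient pressure, with the other 4 arrays between -24.4 and -14.8. Keratinocyte markers were bright, with a mean over 9 genes of 10.77 to 10.87 under negative pressure and 10.76 to 10.77 at ambient pressure. Of these 9, 0 passed in limma and 2 had an unadjusted p under 0.05, against 2239 of all 19775 genes. The 2 were KRT5 and DSG3, higher under negative pressure by 0.33 and 0.63 on the log2 scale. Of 21 measured markers of fibroblasts, melanocytes and immune cells, 0 passed in limma and 0 had an unadjusted p under 0.05. In RNA of whole cultures, fewer expressing cells and less RNA per cell cannot be told apart.

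The 300 bases around each annotated transcription start, 250 before and 50 after, were searched for the forkhead core GTAAACA on both strands (RefSeq, GRCh38.p14). All 10 genes matched the table, with 20 windows in all because several genes have more than 1 start. The core was present in 4 of these 20 windows, 1 each of TSC22D3, BTG1, TXNIP and FOXO4, and in 3.42% of all 35116 windows. It began 147 bases before the start in TSC22D3, 209 in BTG1 and 124 in TXNIP, and 23 bases after it in FOXO4. The windows of TSC22D3, BTG1, TXNIP and FOXO4 are shown because they are the 4 that hold the core, whatever the array values of their genes. That of DDIT4 is shown as the window of the gene with the largest difference, and it holds no such core. The windows lie at chrX:107717013-107717312 (minus strand), chr12:92145797-92146096 (minus strand), chr1:145996530-145996829 (minus strand), chrX:71095601-71095900 (plus strand) and chr10:72273674-72273973 (plus strand). Each is written on the strand of its gene, and capitals mark the core, which reads as its reverse complement TGTTTAC in TSC22D3 and BTG1.
TSC22D3: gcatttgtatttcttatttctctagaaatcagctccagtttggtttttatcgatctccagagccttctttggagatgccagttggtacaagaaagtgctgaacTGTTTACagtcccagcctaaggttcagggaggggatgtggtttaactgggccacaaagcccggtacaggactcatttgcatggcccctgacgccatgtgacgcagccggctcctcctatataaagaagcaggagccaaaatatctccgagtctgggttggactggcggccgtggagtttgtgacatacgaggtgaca
BTG1: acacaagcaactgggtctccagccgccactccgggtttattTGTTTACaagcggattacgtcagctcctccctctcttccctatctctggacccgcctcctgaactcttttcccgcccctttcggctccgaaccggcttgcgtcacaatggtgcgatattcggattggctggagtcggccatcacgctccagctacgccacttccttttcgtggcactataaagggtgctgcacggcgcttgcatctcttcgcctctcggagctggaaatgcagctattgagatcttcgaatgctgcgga
TXNIP: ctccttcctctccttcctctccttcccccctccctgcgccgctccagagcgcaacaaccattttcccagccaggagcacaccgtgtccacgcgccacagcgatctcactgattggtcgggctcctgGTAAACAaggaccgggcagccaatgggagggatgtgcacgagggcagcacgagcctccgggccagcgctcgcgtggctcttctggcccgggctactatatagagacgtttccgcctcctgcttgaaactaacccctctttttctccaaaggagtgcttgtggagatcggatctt
FOXO4: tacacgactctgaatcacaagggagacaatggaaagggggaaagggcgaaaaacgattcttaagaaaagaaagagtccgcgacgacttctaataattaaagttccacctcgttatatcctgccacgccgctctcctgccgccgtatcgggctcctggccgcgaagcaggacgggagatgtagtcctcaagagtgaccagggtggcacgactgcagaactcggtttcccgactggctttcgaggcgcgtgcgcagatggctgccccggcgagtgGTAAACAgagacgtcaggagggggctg
DDIT4: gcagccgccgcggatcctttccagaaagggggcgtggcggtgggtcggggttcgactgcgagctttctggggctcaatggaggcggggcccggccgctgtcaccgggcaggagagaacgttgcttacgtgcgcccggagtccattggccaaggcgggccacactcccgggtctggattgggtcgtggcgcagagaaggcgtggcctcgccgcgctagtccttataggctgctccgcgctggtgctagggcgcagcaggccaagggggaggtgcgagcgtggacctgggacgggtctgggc
TSC22D3 has 4 annotated starts and TXNIP has 2, and for each gene the core stood in the window of 1 of them. BTG1, FOXO4 and DDIT4 have 1 start each. The insulin response core CAAAACA was in 0 of the 20 windows and 4.92% of all. The glucocorticoid response core AGAACA was in 1 window, of BCL6 (14.8% of all), and the E-box CACGTG in 1, of CCNG2 (7.26% of all). The matches lie in different genes and do not overlap. A match in a window is a run of letters and was not tested as a binding site.

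Of the 27 probe sets, 24 lay higher and 3 lower under negative pressure, with a median log2 difference of 0.39, against 0.01 over all probe sets. The 3 negative pressure arrays lay wholly above the 3 ambient arrays for 15 of the 27 (8.44% of all probe sets) and wholly below them for 1 (6.56% of all). Probe sets of 1 gene read RNA of that same gene and are not independent: CCNG2 gave 4 of the 15 and TXNIP 3. An adjusted p under 0.05, in a limma fit over all probe sets with Benjamini-Hochberg adjustment, was reached by 2 of the 27, both higher, against 0.480% of all probe sets in either direction. These were the probe set of DDIT4 and the brightest probe set of TSC22D3. With the replicate number as a block, 7 of the 27 passed, all higher, against 2.27% of all probe sets. Without the replicate 3 arrays of either group, a setting added once the data had been seen, the same 2 passed, against 1.10% of all. With 1 probe set per gene and adjustment over 19775 genes, BCL6 and BTG1 also passed (limma adjusted p = 0.0483 and 0.0473), so that 4 of the 10 genes did, against 0.920% of all genes. With each gene taken as the average over its probe sets, 2 of the 10 passed, and BCL6 and BTG1 stood at 0.42 and 0.29 (limma adjusted p = 0.150 and 0.267).

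**Figure D1:**
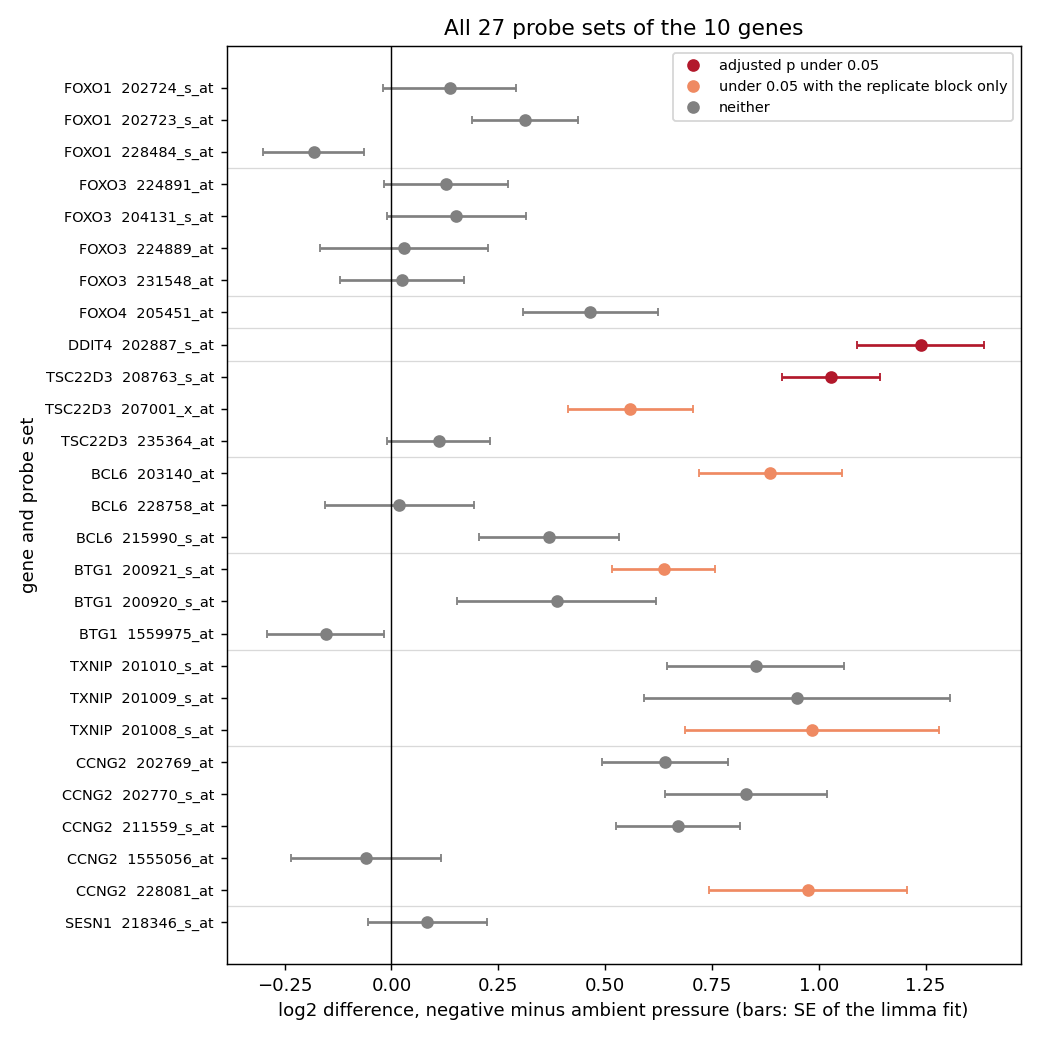
Log2 difference (horizontal axis, negative minus ambient pressure) of each of the 27 probe sets, grouped by gene, with bars for the standard error of the limma fit and n = 3 arrays per group. Of the 27 probe sets, 24 lie right of 0, the red points of DDIT4 and TSC22D3 are the 2 past an adjusted p of 0.05, and orange points passed with the replicate block only.

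None of the 8 probe sets of FOXO1, FOXO3 and FOXO4 passed in limma, and 2 had an unadjusted p under 0.05, against 5387 of all 54613 probe sets. The brightest FOXO1 probe set read 6.29, 6.39 and 6.11 on the log2 scale in replicates 1 to 3 under negative pressure, against 6.34, 6.20 and 5.84 at ambient pressure. The groups overlapped, at a log2 difference of 0.14 ± 0.15 (SE). Another FOXO1 probe set, 202723_s_at, stood at 6.22, 6.07 and 5.98 under negative pressure, against 5.76, 5.91 and 5.66 at ambient pressure, without overlap (0.31 ± 0.12, limma adjusted p = 0.437). The FOXO1 probe set of lowest signal, below the median of all probe sets, was the 1 of the 27 that lay wholly lower (-0.18 ± 0.12, limma adjusted p = 0.731).

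FOXO3 had 4 probe sets of its own, and all overlapped between the groups, with log2 differences of 0.02 to 0.15. The brightest read 8.35, 8.56 and 8.46 under negative pressure, against 8.49, 8.45 and 8.05 at ambient pressure. Its lowest value was that of ambient replicate 3, and without that array the difference was -0.0097. A further 3 probe sets are annotated to FOXO3 together with its copy FOXO3B and cannot be assigned to either; they stood between -0.16 and 0.13. FOXO4 read 3.94, 4.26 and 4.25 under negative pressure, against 3.84, 3.82 and 3.39 at ambient pressure. These did not overlap, at 0.47 ± 0.16 (SE; limma adjusted p = 0.325), on a signal close to the median of all probe sets, and the difference was 0.27 without both replicate 3 arrays. FOXO6, the remaining family member, stood at 0.34 ± 0.12 (limma adjusted p = 0.351).

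DDIT4, also called REDD1, restrains mTORC1 through the TSC1-TSC2 complex. Its 1 probe set, 202887_s_at, read 10.54, 10.61 and 11.05 under negative pressure, against 9.53, 9.46 and 9.50 at ambient pressure. All 3 negative pressure arrays were higher by more than the whole ambient range, and replicate 3 was the highest of them. The difference was 1.24 ± 0.15 (SE), or 2.36-fold, with a limma adjusted p of 0.0214 and rank 39 by p among 54613 probe sets. TSC22D3, also called GILZ, is a leucine zipper protein that dampens inflammatory transcription. Its brightest probe set, 208763_s_at, read 8.36, 8.44 and 8.56 under negative pressure, against 7.39, 7.51 and 7.37 at ambient pressure, with narrow groups that lay far apart. The difference was 1.03 ± 0.12, or 2.04-fold (limma adjusted p = 0.0209, rank 22).

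The other TSC22D3 probe sets differed less, and the mean of all 3 stood at 0.57 (limma adjusted p = 0.0261). The probe set 207001_x_at, whose suffix marks probes that may bind other transcripts, read 6.74, 6.30 and 6.37 under negative pressure, against 6.05, 5.83 and 5.84 at ambient pressure. Its groups did not overlap either (0.56 ± 0.15, limma adjusted p = 0.179, 0.0385 with the replicate block). A probe set of signal below the median stood at 0.11 ± 0.12. The calls of DDIT4 and of the brightest TSC22D3 probe set were both lost without negative pressure replicate 1, negative pressure replicate 2, ambient replicate 1 or ambient replicate 2, at limma adjusted p between 0.0747 and 0.149. They held without either replicate 3 array. The log2 difference stayed between 1.08 and 1.33 for DDIT4 and between 0.98 and 1.08 for TSC22D3 when any 1 array was left out.

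**Figure D2:**
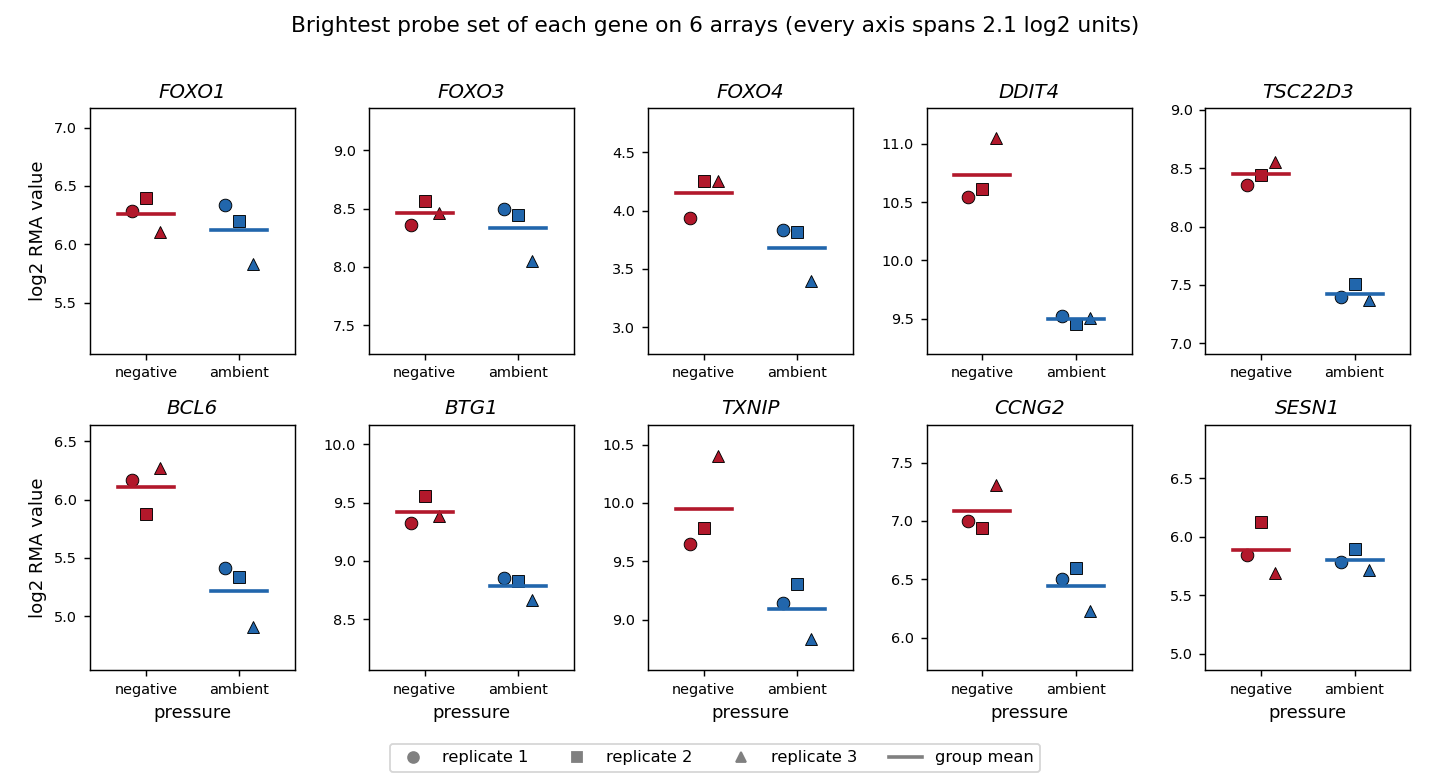
Log2 RMA value (vertical axis, 2.1 log2 units in every panel) of the brightest probe set of each gene on the 3 negative pressure arrays (left, red) and the 3 ambient arrays (right, blue), with a bar at each group mean. The groups are wholly apart for FOXO4, DDIT4, TSC22D3, BCL6, BTG1, TXNIP and CCNG2, and overlap for FOXO1, FOXO3 and SESN1. Of all probe sets, 8.44% lay wholly higher under negative pressure and 6.56% wholly lower.

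BCL6, a transcriptional repressor, and BTG1, an antiproliferative partner of the CCR4-NOT deadenylase, came next by rank. The brightest BCL6 probe set read 6.17, 5.87 and 6.27 under negative pressure, against 5.41, 5.34 and 4.91 at ambient pressure, without overlap. Its difference was 0.89 ± 0.17 (SE), or 1.85-fold, with a limma adjusted p of 0.0675, and of 0.0233 with the replicate block. The other BCL6 probe sets lay below the median signal and stood at 0.37 ± 0.16 and 0.02 ± 0.17. For BTG1, the brightest probe set read 9.32, 9.56 and 9.39 under negative pressure, against 8.85, 8.83 and 8.67 at ambient pressure. This is a difference of 0.64 ± 0.12, or 1.56-fold (limma adjusted p = 0.0673, 0.0252 with the replicate block). A further bright BTG1 probe set overlapped between the groups, at 7.79, 7.92 and 8.71 under negative pressure, against 7.65, 7.61 and 8.004 at ambient pressure. Both of its replicate 3 arrays were the highest of their groups. The BTG1 probe set of lowest signal stood at -0.15 ± 0.14.

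CCNG2, an unconventional cyclin that slows the cell cycle, was read by 5 probe sets. Of these, 4 were wholly higher under negative pressure (8.44% of all probe sets), with log2 differences of 0.64 to 0.98. The brightest stood at 7.002, 6.94 and 7.31 under negative pressure, against 6.50, 6.59 and 6.23 at ambient pressure (0.64 ± 0.15, limma adjusted p = 0.125; 0.42 without both replicate 3 arrays). Of the 4, 228081_at passed with the replicate block (0.98 ± 0.23, limma adjusted p = 0.138, block 0.0376). The last of the 5, 1555056_at, overlapped at -0.06 ± 0.18. SESN1, a sestrin that lowers mTORC1 activity, overlapped on its 1 probe set, at 5.85, 6.13 and 5.69 under negative pressure, against 5.79, 5.90 and 5.72 at ambient pressure (0.08 ± 0.14).

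TXNIP binds thioredoxin and limits glucose uptake. Its 3 probe sets were all wholly higher under negative pressure (8.44% of all probe sets), by 0.85 to 0.98. The brightest read 9.65, 9.79 and 10.40 under negative pressure, against 9.14, 9.30 and 8.83 at ambient pressure (0.85 ± 0.21, limma adjusted p = 0.147). The widest spread was that of 201009_s_at, with 8.96, 9.39 and 10.64 under negative pressure, against 8.54, 8.68 and 8.91 at ambient pressure. On each TXNIP probe set, negative pressure replicate 3 was the highest array. Of the 3, 201008_s_at passed with the replicate block (0.98 ± 0.30, limma adjusted p = 0.250, block 0.0376). Without both replicate 3 arrays, the TXNIP differences were 0.50, 0.56 and 0.63.

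The difference between same-numbered arrays was largest in replicate 3 for 19 of the 27 probe sets, as it was for 34.7% of all probe sets. Its median over the 27 was 0.22 in replicate 1, 0.32 in replicate 2 and 0.71 in replicate 3, whereas over all probe sets it was 0.03, -0.0045 and 0.00052. TXNIP (0.51, 0.48 and 1.56), CCNG2 (0.50, 0.35 and 1.07) and BCL6 (0.76, 0.54 and 1.36) had their brightest probe sets furthest apart in replicate 3. For TSC22D3 the 3 differences were 0.96, 0.93 and 1.19, and for DDIT4 1.02, 1.15 and 1.55. The part of the replicate 3 arrays' offset in these differences was not tested.

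**Figure D3:**
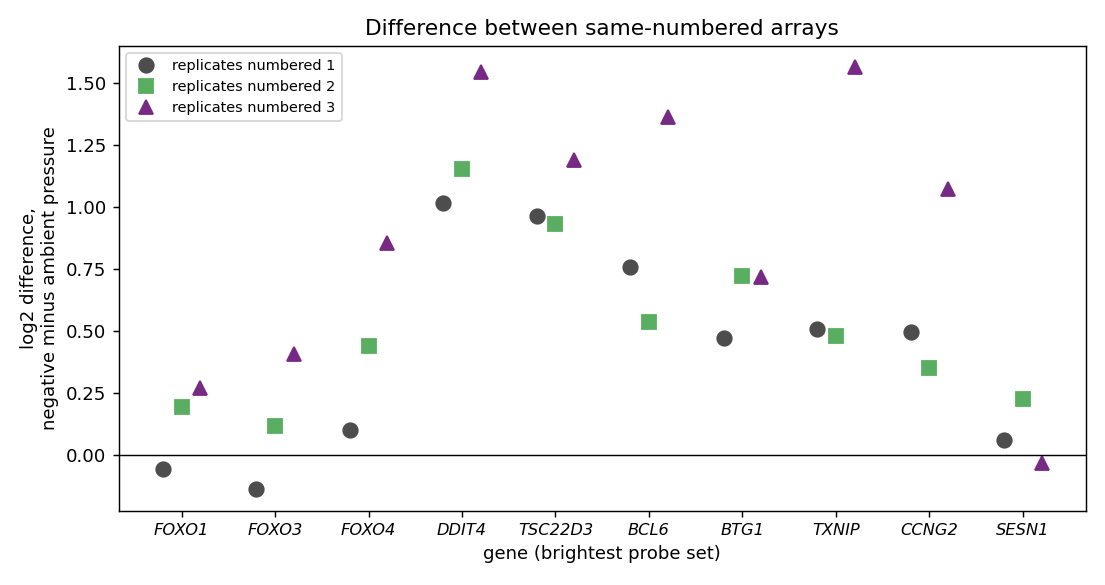
Log2 difference between the negative pressure and the ambient array of the same replicate number (vertical axis) for the brightest probe set of each gene, with 1 marker per number. DDIT4 and TSC22D3 lie above 0.9 in every number, while TXNIP, CCNG2 and BCL6 reach above 1.0 only in replicate 3.

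Other genes of the pathway were counted in 6 lists, each gene by its brightest probe set. Of 161 such genes measured, 4 passed, all higher, and 157 did not. The background over 19775 genes was 0.430% higher and 0.212% lower. The lists, too, were chosen with earlier results of these data known. Their counts and p-values, set against the background, are therefore a description and support nothing further. The median log2 difference of the 161 was 0.05, against 0.01 over all genes. With the replicate block, 9 were higher and 3 lower, against 1.55% and 1.02% of all genes.

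Among 39 further FOXO targets, 3 rose (0.430% of all genes), none fell (0.212% of all) and 36 did not pass. Their median was 0.11, and the list does not separate genes that FOXO activates from genes that it represses. TNFSF10, the death ligand TRAIL, read 7.82, 8.001 and 8.10 under negative pressure, against 6.87, 6.84 and 6.86 at ambient pressure. It rose 2.17-fold (1.12 ± 0.12, SE; limma adjusted p = 0.0145). ULK1, the kinase that starts autophagy, rose 2.06-fold (1.04 ± 0.14, limma adjusted p = 0.0263), with 5.70, 5.44 and 5.68 under negative pressure, against 4.67, 4.69 and 4.32 at ambient pressure. GABARAPL1, a protein of the autophagosome membrane, rose 1.75-fold (0.81 ± 0.13, limma adjusted p = 0.0363), with 8.25, 8.42 and 8.24 under negative pressure, against 7.67, 7.39 and 7.43 at ambient pressure. Of all probe sets, 8.44% lay wholly higher under negative pressure. None of these 3 genes overlapped between the groups, which their choice by smallest p made likely. Leaving out negative pressure replicate 1 or 2 or ambient replicate 1 or 2 ended the call of each of them (limma adjusted p 0.0534 to 0.215). Without ambient replicate 3, ULK1 and GABARAPL1 missed the threshold (0.0552 and 0.0879), and without negative pressure replicate 3, GABARAPL1 did (0.0526). Median centring also ended the call of GABARAPL1 (0.0536). The replicate block added 3 higher genes, singled out after their values were seen. These were the hydrogen peroxide-degrading catalase gene CAT (0.64, block 0.0218), the muscle atrophy ubiquitin ligase gene FBXO32 (0.94, block 0.00866) and the pyruvate dehydrogenase kinase gene PDK4 (1.13, block 0.0195). The PDK4 probe set lay below the median signal. The block also added 1 lower gene, ULK2, the paralogue of ULK1 (-0.89 ± 0.17, limma adjusted p = 0.0656, block 0.00663), singled out in the same way.

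None of 21 measured genes of the insulin, PI3K, AKT and SGK pathway passed in limma, and the median was 0.0021. An unadjusted p under 0.05 was held by 5 of them, against 2239 of all 19775 genes. SGK1, a kinase that phosphorylates FOXO3, read 7.74, 7.71 and 7.56 under negative pressure, against 8.23, 8.48 and 8.14 at ambient pressure. Its groups did not overlap (-0.61 ± 0.13, SE, limma adjusted p = 0.0964). It passed in 3 of 16 alternatives, with the replicate block (0.0294), array weights (0.0131) and the mean of probe sets (0.0498). That mean left its difference at -0.61 and adjusts over fewer features. In the other 13 it did not pass, with limma adjusted p from 0.111 to 0.367 when any 1 array was left out. The insulin receptor substrate gene IRS1, singled out after its value was seen, was the other lower gene with the block (-0.53, block 0.0422). AKT1 stood at -0.16 ± 0.16 (-0.26 to -0.035 when any 1 array was left out, the last without ambient replicate 3) and AKT2 at -0.0012 ± 0.14. Of 29 FOXO partners and modifiers, such as 14-3-3 proteins and sirtuins, none passed in limma, 4 had an unadjusted p under 0.05 (2239 of 19775 over all genes), and the median was 0.01. The smallest p was that of the arginine methyltransferase gene PRMT1 (-0.33 ± 0.11, limma adjusted p = 0.335), which stood at -0.017 with the mean of its probe sets.

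Of 37 genes of mTORC1 control, the pathway that DDIT4 restrains, ULK1 was the 1 that rose, and 36 did not pass. Over all genes, 0.430% were higher and 0.212% lower. The list median was 0.09, with 28 members above 0 and 9 below (10567 of 19775 above 0 over all genes). TSC1 stood at 0.31 ± 0.13 (SE; limma adjusted p = 0.462; 0.21 without ambient replicate 3), TSC2 at 0.06 ± 0.19 and MTOR at 0.02 ± 0.14. With the replicate block the arginine sensor gene CASTOR1 was also higher (0.64, block 0.0370), singled out after its value was seen.

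In the list of the glucocorticoid receptor and its targets, 1 of 20 rose, none fell and 19 did not pass, with a median of 0.03. Over all genes, 0.430% were higher and 0.212% lower. The transcription factor gene CEBPD read 7.91, 7.91 and 7.95 under negative pressure, against 7.14, 7.20 and 7.39 at ambient pressure (0.68 ± 0.12, SE; limma adjusted p = 0.0498, from 0.00536 to 0.240 over the alternatives). Its call was lost in 11 of 16 alternatives, among them leaving out any 1 array. The receptor gene NR3C1 stood at 0.47 ± 0.18 (limma adjusted p = 0.409), at 0.30 without ambient replicate 3 and at 0.24 with the mean of its probe sets. FKBP5, a widely used glucocorticoid target gene, overlapped between the groups at -0.26 ± 0.14 (limma adjusted p = 0.622), and stood at -0.16 without negative pressure replicate 1. SGK1, which is also such a target, was lower as given above. With the replicate block the co-chaperone gene FKBP4 was higher as well (0.52, block 0.0456), singled out after its value was seen.

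Of 23 relatives and partners of the 10 genes none passed in limma, 4 had an unadjusted p under 0.05, and the median was 0.07. In the lists with calls, an unadjusted p under 0.05 was held by 11 of 39 FOXO targets, 7 of 37 mTORC1 genes and 6 of 20 glucocorticoid genes, against 2239 of 19775 over all genes. TXNRD1, the reductase of thioredoxin, stood at 0.47 ± 0.15 (SE; limma adjusted p = 0.291), and at 0.15 with the mean of its probe sets. Thioredoxin itself, TXN, stood at 0.13 ± 0.12, at 0.055 without ambient replicate 3 and at 0.040 with that mean. TSC22D1, the founding member of the family of TSC22D3, stood at 0.05 ± 0.15.

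**Figure D4:**
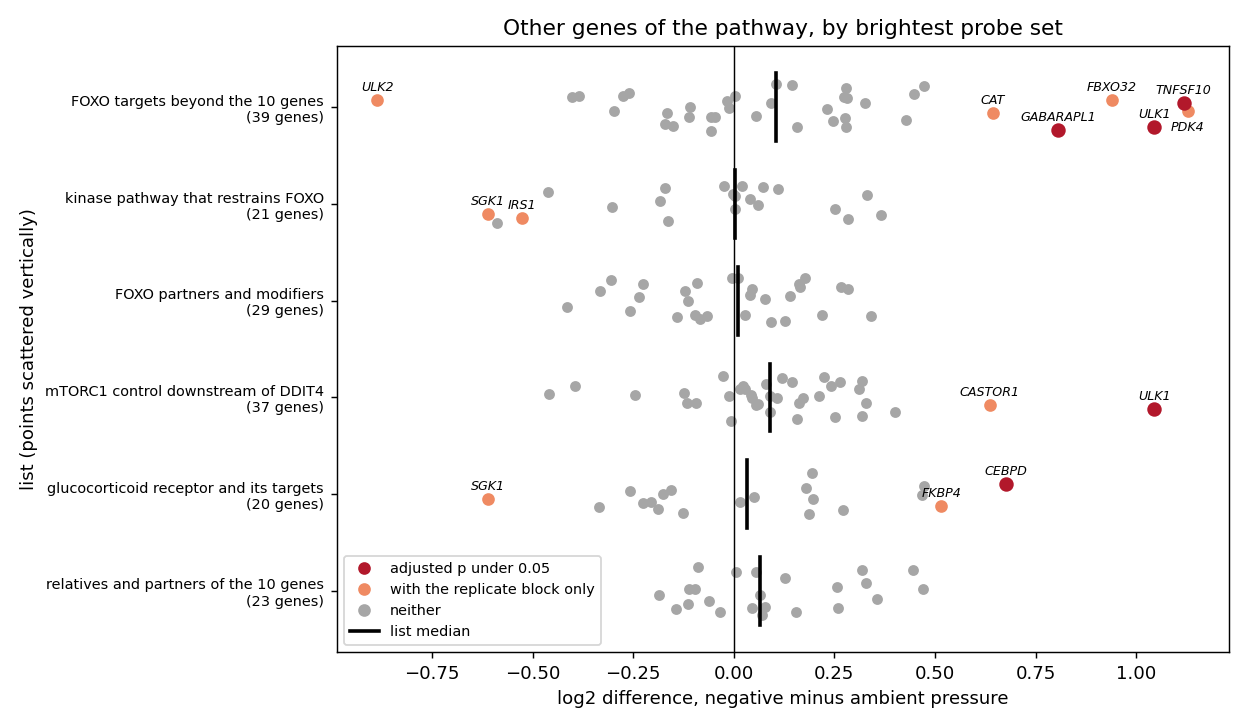
Log2 difference (horizontal axis, negative minus ambient pressure) of every measured gene of the 6 lists, by brightest probe set, with a black bar at each list median. The red points TNFSF10, ULK1, GABARAPL1 and CEBPD are the 4 genes past an adjusted p of 0.05, orange points passed with the replicate block only, and list medians lie between 0.0021 and 0.11.

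Over the 6 arrays, the genes whose values followed DDIT4 most closely among 13030 genes of above-median signal were LINC01503 (Pearson's r = 0.996), PCBD1 (0.995) and CALHM2 (0.994). For TSC22D3 they were DONSON (0.997), PGS1 (0.996) and AP2B1 (0.996). The measure ignores size: DONSON differed by 0.33 and AP2B1 by 0.23, and LINC01503 by 0.87. In limma, DONSON, PGS1 and AP2B1 did not pass (limma adjusted p = 0.280, 0.210 and 0.535). LINC01503, PCBD1 and CALHM2 did (limma adjusted p = 0.0318, 0.0434 and 0.0341). These values are a description over 6 arrays that fall into 2 groups.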

How the data were processed

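RMA, as run in Expression Console 1.2 of Affymetrix, had turned the scans into the log2 values that the authors deposited, per the submitters' processing notes. The sources used here name no filter, scan date or array batch. The values ran from 0.890 to 13.4, as on a log2 scale. A single gene symbol was annotated for 41091 probe sets, more than 1 for 1801 and none here for 11721. The 62 control probe sets were left out. Probe sets with several symbols named no gene.

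All 54613 probe sets were fitted in limma 3.58.1 (lmFit, then eBayes with its default prior, under R 4.3.3), with pressure as the only term and with Benjamini-Hochberg adjustment over all of them and a threshold of 0.05. Differences are negative minus ambient pressure. A gene was represented by its probe set of highest mean, called brightest. The fit was tested on simulated data. No filter on low values was applied, and the number of arrays limits the precision.

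The genes and lists were chosen with earlier results of these data known. Named were every probe set of the 10 genes, up to 3 genes per direction of each list past the threshold or else the gene of smallest p, 12 genes fixed by name (1 of them is not reported here), and the 3 genes most like DDIT4 and TSC22D3. Of 174 different listed genes, 161 were measured on a probe set of their own.

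The groups share replicate numbers 1 to 3. Deviations from the group means correlated at 0.22, 0.23 and 0.47 between same-numbered arrays. All exceed 0.1, and on that ground alone the numbers served as pairs in the block alternative, since no shared day or batch is stated. The main fit did not pair the arrays. Negative pressure replicate 1 also exceeded 0.1 with ambient replicate 2 (0.15). Negative pressure replicate 2 correlated more with ambient replicate 1 (0.36) than with its own number. An offset shared by the replicate 3 arrays would raise all 3 same-numbered values. Blocked values are given where they change a call. Alternatives were the replicate block, 1 probe set per gene, the mean of all probe sets, leaving out low means, repeated quantile normalisation, median centring, cyclic loess, trend and robust variance, array weights and leaving out each array.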

Additional observations from a re-analysis of the deposited data

How the results depend on the processing

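The count of probe sets past the threshold was 262, that of the 27 probe sets of the 10 genes 2, and that of the listed genes 4. With the replicate block these were 1242, 7 and 12, and with array weights 1516, 6 and 13. With 1 probe set per gene, 4 of the 10 genes passed, a setting that adjusts over fewer features. Of the genes described, the block changed no call beyond those given beside the results, apart from adding the keratinocyte marker DSG3. Median centring gave 2 listed genes, without GABARAPL1 and CEBPD. Without both replicate 3 arrays (added once the data had been seen) 600 probe sets and 7 listed genes passed. Leaving out 1 array gave 1 to 235 probe sets, 0 to 2 of the 27 and 0 to 2 listed genes, with fewer arrays in each fit. Beyond the construction of each setting, the cause was not tested. The brightest probe sets of DDIT4 and TSC22D3 kept their direction in all 16 alternatives and their call in 12.

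Of 432 single-gene values under alternatives, 368 kept their direction and side of the threshold, 35 lost the call, 9 gained it and 20 turned in sign, none of these from a called gene. When 1 array was left out, log2 differences ranged from -0.0085 to 0.24 for FOXO1, from -0.0097 to 0.21 for FOXO3, from -0.035 to 0.18 for SESN1, from -0.12 to 0.093 for AKT2, from -0.085 to 0.12 for MTOR, from -0.17 to 0.21 for TSC2 and from -0.036 to 0.19 for TSC22D1. Other turned values were MTOR with cyclic loess (-0.016), TSC2 with array weights (-0.045) and with the mean of its probe sets (-0.042), TSC22D1 with that mean (-0.14), and, without both replicate 3 arrays, FOXO3 (-0.010) and TSC2 (-0.084). Probe sets of low signal carry little information on either side.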
